A study of Mus musculus with 20 samples.

Results

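Homeobox genes encode transcription factors that bind DNA through a homeodomain. The data described here are the histone marks at 99 trimethylated regions of 68 such genes, in fibroblasts before and after deletion of Ash2l. Members were the regions with trimethylation of lysine 4 of histone H3 (H3K4me3) that the deposited promoter lists assign to a gene of 16 families (Hoxa, Hoxb, Hoxc, Hoxd, Meis, Pbx, Prrx, Irx, Dlx, Lhx, Msx, Alx, Pitx, Pknox, Tgif and that of Six4). They make up 99 of 15584 annotated promoter regions and of 22343 H3K4me3 regions in all, with coordinates on the mm9 build. Of these, 37 regions belonged to 24 Hox cluster genes and 62 to 44 other homeobox genes, including antisense transcripts that carry a homeobox gene's name. No region was assigned to a Hoxb gene. Every H3K4me1 (monomethylation) region that shared 1 bp or more with a member was added, which gave 96 of 117165 regions, 26 over Hox and 70 over other homeobox members.

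Hox genes lie in clusters, and their order along the chromosome follows the order in which they are used along the body axis and along the limb. Cells keep this positional pattern after they leave the embryo, and fibroblasts from different body sites are known for carrying different sets of active Hox genes. H3K4me3 marks active promoters, and broad stretches of it are known at genes of cell identity. H3K4me1 is typical of enhancers and of the flanks of promoters. Ash2l is a core subunit shared by the KMT2 complexes that place these marks, and Kmt2a, the catalytic subunit of one of them, is known for maintaining Hox gene expression.

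The cells were fibroblasts from day 13 mouse embryos with both Ash2l alleles floxed and a tamoxifen-inducible Cre recombinase (Ash2l fl/fl Cre-ER), immortalized with an shRNA against p19Arf. The 2 lines, KO1 (iMEF1) and KO2 (iMEF2), received 5 nM 4-hydroxytamoxifen (+HOT), which deletes exon 4, or the ethanol vehicle (-HOT) for 5 days. Each mark, line and condition was 1 library, so the 2 lines are the only replicates and a single value has no SD. Wild-type lines and inputs belong to the series and were not used here, so deletion of Ash2l and any other action of HOT cannot be told apart. In a population of cells, fewer cells with the mark and less mark per cell cannot be told apart either.

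The 4 H3K4me3 libraries held 2441698 to 17708078 reads in regions and the 4 H3K4me1 libraries 6157647 to 9048056. Values are the authors' reads per region scaled to the lowest coverage of a line, called scaled reads below. KO1 and KO2 were scaled separately, and in -HOT cells the median H3K4me3 region held 1.97 more log2 units in KO2, so levels in the 2 lines are only set side by side. Of 14 fibroblast marker genes, all had an H3K4me3 region, and 10 were in the authors' High class in KO1 and 12 in KO2. None of 6 epithelial, 5 blood, 5 endothelial, 6 neural and 4 pluripotency markers was in that class in either line.

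Promoter sequence was taken from the mm9 genome for 3 genes on which the results below turn, from 250 bases before to 50 bases after the GENCODE start site and read along the gene's strand. Six4 and Dlx1 are other homeobox genes, Six4 with one of the largest gains of H3K4me1 and Dlx1 with one of the largest losses of H3K4me3. The strongest region of Hoxd13 had the smallest H3K4me3 change of the tested Hox regions. They lie at chr12:74214352-74214651 on the minus strand (Six4) and, on the plus strand, at chr2:71366490-71366789 (Dlx1) and chr2:74506117-74506416 (Hoxd13). Capitals mark CG dinucleotides.
Six4: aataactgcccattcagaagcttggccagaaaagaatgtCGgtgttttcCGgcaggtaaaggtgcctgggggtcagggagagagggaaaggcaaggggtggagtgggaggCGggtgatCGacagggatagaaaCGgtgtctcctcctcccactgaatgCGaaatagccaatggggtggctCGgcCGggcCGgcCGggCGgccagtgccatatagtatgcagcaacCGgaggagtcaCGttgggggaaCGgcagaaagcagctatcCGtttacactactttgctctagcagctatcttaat
Dlx1: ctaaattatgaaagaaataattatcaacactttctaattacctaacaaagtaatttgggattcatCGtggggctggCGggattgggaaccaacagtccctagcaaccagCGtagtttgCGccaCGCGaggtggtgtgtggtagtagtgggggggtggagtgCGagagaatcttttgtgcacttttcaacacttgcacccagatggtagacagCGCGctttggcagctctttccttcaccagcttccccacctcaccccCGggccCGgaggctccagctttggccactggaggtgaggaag
Hoxd13: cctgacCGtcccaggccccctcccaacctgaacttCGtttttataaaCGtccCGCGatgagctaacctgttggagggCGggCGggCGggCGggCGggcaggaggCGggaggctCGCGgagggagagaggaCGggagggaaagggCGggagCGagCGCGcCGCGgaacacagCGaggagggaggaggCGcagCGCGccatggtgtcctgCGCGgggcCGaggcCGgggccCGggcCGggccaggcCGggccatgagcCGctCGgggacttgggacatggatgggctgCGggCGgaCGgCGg
Hoxd13 held 37 CG dinucleotides, Six4 15 and Dlx1 11, and the median promoter of all 22227 protein-coding genes held 12. Over the 63 member genes with a GENCODE promoter the median was 17, the same as for the Hox genes alone.

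The same windows were searched on both strands for short motifs. The GC box (GGGCGG) was in 33 of 63 member promoters, or 52.4%, against 44.0% of all promoters, and the CCAAT box (CCAAT) in 34, or 54.0%, against 37.9%. The TATA box (TATAAA) was in 7 member promoters, 4 of them Hox, and in 13.4% of all promoters. The core recognised by many homeodomains (TAATTA) was in 4 members, or 6.35%, against 4.8% of all, and the Meis and Tgif core (TGACAG) was in 8, or 12.7%, against 18.0%. Hoxd13 held 7 GC boxes and 2 matches to the TATA box letters, and Dlx1 held 2 matches to TAATTA and no GC box. None of the 5 motifs contains another, and a match of letters is not a measured binding site. Members and all promoters also differ in H3K4me3 and in the choice of start site, and the part of these in the shares was not tested.

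In untreated cells the Hox regions carried less H3K4me3 per length than the other homeobox regions. Their median in KO1 was 33.8 scaled reads per kb, with 93.0 at the other homeobox regions and 137 at all annotated promoter regions. In KO2 these medians were 208, 301 and 535. The difference between the medians of Hox and other regions was -1.46 log2 units in KO1 and -0.53 in KO2. Regions are not replicates, and this difference has no test.

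The authors' classes gave the same order. In KO1, 8 of 37 Hox regions (21.6%) were High, against 28 of 62 other homeobox regions (45.2%) and 56.6% of all annotated promoter regions. In KO2 the numbers were 8 (21.6%), 23 (37.1%) and 41.3%. A Low class was given to 15 Hox regions in KO1 and 14 in KO2. Most regions kept their class between the lines: 6 Hox regions were High, 10 Medium and 12 Low in both, and 23, 13 and 16 of the others.

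Width set the homeobox regions apart at both ends. The median Hox region was 914 bp wide and the median other homeobox region 1532 bp, both below the 1745 bp of all annotated promoter regions. Regions over 4000 bp were more frequent, however, with 7 of 37 Hox and 10 of 62 other regions, together 17.2% of members against 3.71% of annotated promoter regions. Within 1000 bp of a start site lay 21 Hox and 41 other regions by the authors' distances. CG dinucleotides per 100 bp had medians of 4.56 in Hox regions, 5.54 in other homeobox regions and 4.29 in all annotated promoter regions.

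The widest of all annotated promoter regions was the 14974 bp region of Hoxa9 (chr6:52170196-52185169). It also held the highest -HOT value of any annotated promoter region in each line, with 2288 scaled reads in KO1 and 8266 in KO2. Per kb it was not extreme, at 153 and 552. Hoxa9 acts in the limb and in blood progenitors and is a classic target of Kmt2a. An even wider region of 15309 bp, chr2:74516755-74532063, ran through the Hoxd11 to Hoxd10 part of the Hoxd cluster. It is the widest H3K4me3 region of the series but is not assigned to a gene in the promoter lists, and so is not a member.

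The clusters differed in how much of them was marked. H3K4me3 regions covered 47.5% of the Hoxa cluster, 30.3% of Hoxd and 26.1% of Hoxc, over the span of their protein-coding genes and counting regions that are not members. The span of the 10 Hoxb genes (chr11:96055630-96229570) held 1 region of 319 bp, 0.183% of its length. That region had 10.5 scaled reads in KO1 and 61.4 in KO2 without HOT, and 7 and 14 with HOT.

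Over a whole cluster, the reads left after HOT differed between the lines. Summed over the Hoxa regions, 55.5% of scaled reads were left in KO1 and 36.2% in KO2, and for Hoxd 60.1% and 38.9%. At Hoxc 85.8% were left in KO1, from 902 to 774 scaled reads, and 37.6% in KO2, from 8571 to 3225. The KO1 share starts from a low level. In KO1 the median Hoxc member held 24.4 scaled reads per kb without HOT and 23.8 with HOT, and the median of all H3K4me3 regions with HOT was 32.0. How much of the Hoxc signal in KO1 is background was not tested. The Hoxc sum before HOT was 9.50 times higher in KO2 than in KO1, compared with 3.26 times for Hoxa and 3.81 times for Hoxd.

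**Figure D1:**
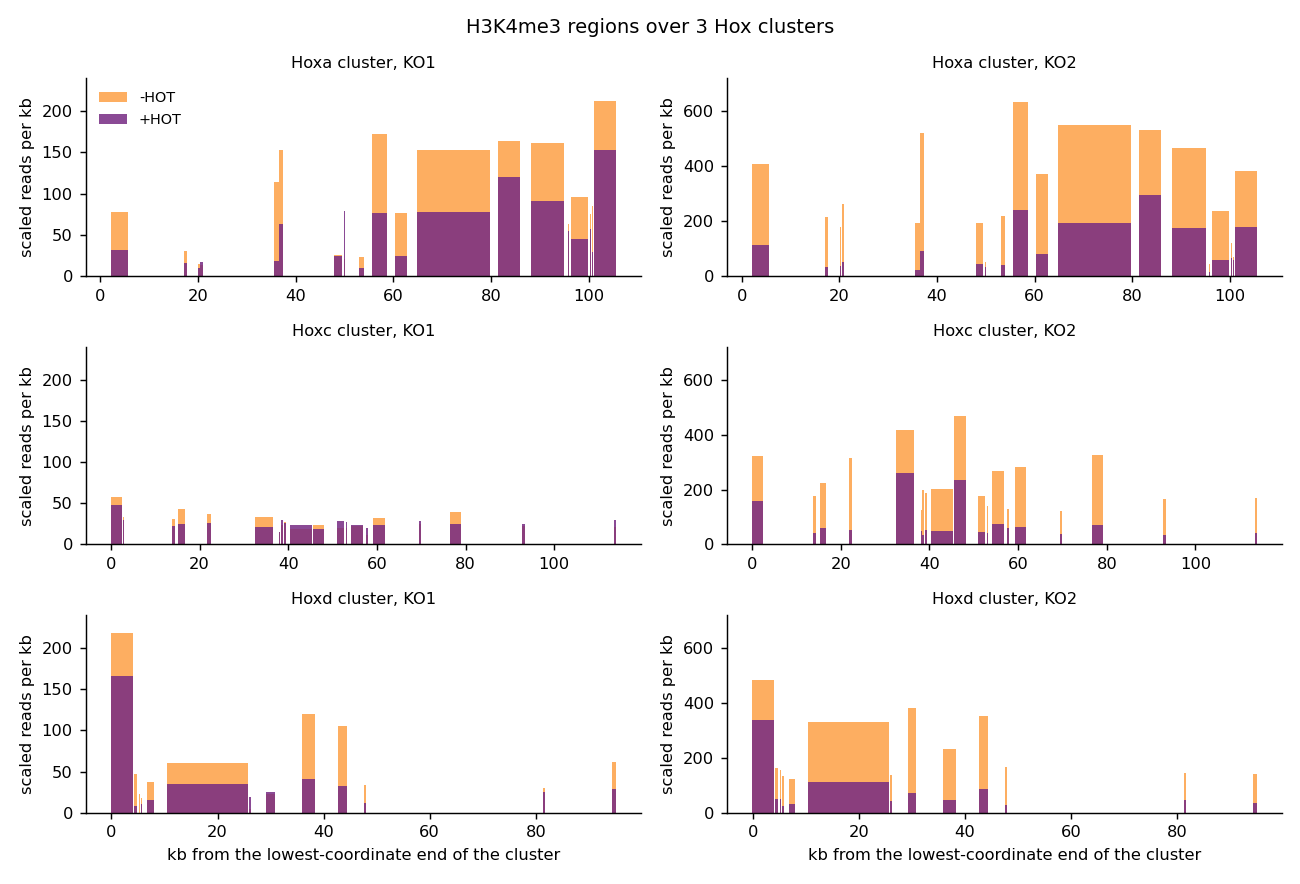
H3K4me3 density (scaled reads per kb of region, vertical axis) along the Hoxa, Hoxc and Hoxd clusters (horizontal axis, kb from the end with the lowest coordinate) in KO1 and KO2. Orange shows -HOT and purple +HOT drawn over it, and each block is 1 region, members and other regions of the span alike. In Hoxc the KO1 blocks stay low and close together in both conditions, while in KO2 the -HOT blocks stand well above the +HOT blocks.

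After HOT, H3K4me3 fell at most homeobox regions, as it did at most H3K4me3 regions of the genome. More than 20 reads in one condition of both lines were reached by 81 of the 99 members, 26 Hox and 55 other. The 18 members below it, 11 Hox and 7 other, had 1.5 to 19.5 scaled reads in KO1 without HOT and 12.9 to 122 in KO2, and were not tested. In a limma fit with the line as a block over all 16129 regions past this minimum, 71 of the 81 fell at an adjusted p under 0.05. The background was 86.5% of all tested regions falling and 0.0744% rising, so in this fit the members' share was near that of the genome. With more than 50 reads 60 of 62 members fell, against 12726 of all 13387 regions, a share close to that of the genome. It was 68 of 81 against 13640 of 16129 with a pseudocount of 5, and 57 of 99 against 13222 of 22343 with no minimum. The members' share was lower in edgeR and in limma with a trend. With edgeR 64 of the 81 fell against 94.5% of all regions, and in limma with a trend 60 of 81 against 92.5%. By class, 21 of 26 Hox regions and 50 of 55 other homeobox regions fell in the first fit. The counts were 15 and 49 with edgeR, and 13 and 47 with the trend, so the Hox share was the lower one each time. By cluster, 9 of 10 Hoxa, 8 of 9 Hoxd and 4 of 7 Hoxc regions fell in the first fit. The Hoxc regions were weak in KO1 before HOT. No member rose with limma (0 also at an unadjusted p under 0.05, and 0 with edgeR).

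The loss was deeper in KO2 in both classes. In KO1 56.8% of the signal was left at the median Hox region and 48.5% at the median other homeobox region, and in KO2 26.9% and 28.6%. The KO1 Hox value includes the Hoxc regions, which were weak before HOT and had a median of 80.0% left. On the log2 scale the medians were -0.81 and -1.88 for Hox, -1.04 and -1.78 for the other homeobox regions, and -1.06 and -1.63 for all tested regions. Hox regions thus stood 0.23 above the others in KO1 and 0.10 below them in KO2, and the order of the 2 classes was not the same in the lines. The drop was steeper in KO2 at 25 of 26 Hox and 52 of 55 other regions, and at 15431 of all 16129.

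The authors' scaling leaves the general loss in the values. When each line was centred on its median region, which moved the median of all tested regions from -1.36 to -0.02 log2 units, 15 members fell (2 Hox, 13 other) and 8 rose (5 Hox, 3 other). Of all tested regions 23.2% fell and 9.42% rose on that scale, close to the members' shares. Without the line as a block 0 members passed with limma (3 fell at an unadjusted p under 0.05, and edgeR, run with the block, called 64). In that limma fit 0 of all 16129 tested regions passed either, and 679 of them fell at an unadjusted p under 0.05.

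**Figure D2:**
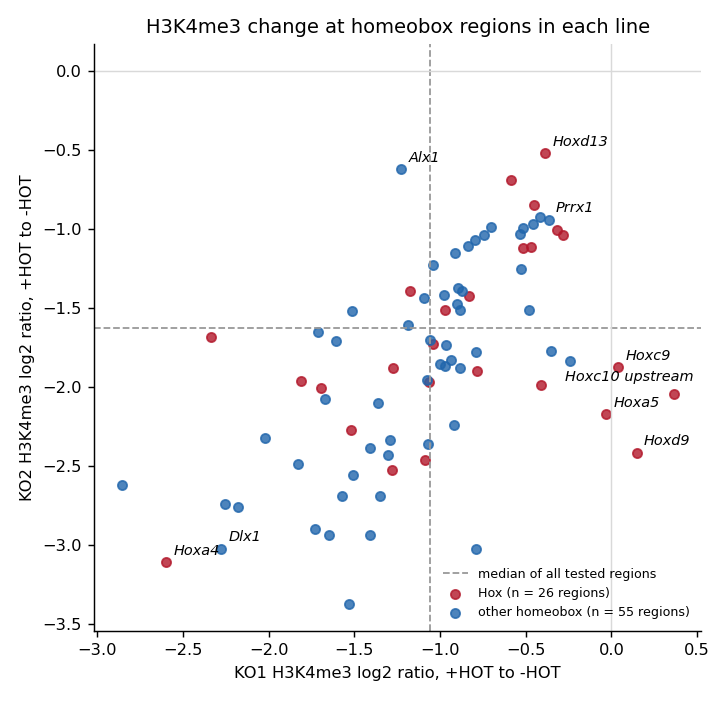
Log2 ratio of +HOT to -HOT H3K4me3 in KO1 (horizontal axis) and KO2 (vertical axis) for the 26 Hox and 55 other homeobox regions past the read minimum, 1 point per region. Dashed lines mark the medians of all tested regions, -1.06 and -1.63, and 3 Hox points lie right of 0 in KO1 while all points lie below 0 in KO2.

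Among the Hox genes, the strongest region of each cluster shows the range. At Hoxa9 the 2288 scaled reads in KO1 became 1167 with HOT, and the 8266 in KO2 became 2900. The log2 change was -1.24 with an SE of 0.39 (limma, adjusted p = 0.00270), a fall of about the genome's median size. This SE is the same for every H3K4me3 region, because the fit found no region-specific spread beyond the common one, so it does not grow where the lines disagree.

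Hoxd13, which patterns the digits, had the region with the smallest difference of the 26 tested Hox regions, while its other tested regions changed by -1.385 and -0.82. The region with the smallest difference, 4193 bp wide (chr2:74506232-74510424), had 914 scaled reads in KO1 without HOT and 698 with HOT, and 2027 and 1411 in KO2. Both lines were lower with HOT, but the change of -0.46 did not pass (limma, adjusted p = 0.247). Centred on the median region it was a gain of 0.89 relative to other regions (limma, adjusted p = 0.00369).

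Hoxc11, a posterior gene of its cluster, had 131 scaled reads in KO1 without HOT and 87 with HOT (chr15:102784071-102788086). In KO2 it had 1680 and 1042. The lines agreed in direction, the change of -0.64 did not pass (limma, adjusted p = 0.108), and edgeR with the same block did call it (adjusted p = 0.0164). Hoxa10, another posterior gene (chr6:52186703-52191219), went in KO1 from 742 to 542 and from 2397 to 1330 in KO2, a change of -0.65 (limma, adjusted p = 0.101, and 0.0139 in edgeR). On the centred scale Hoxc11 and Hoxa10 had values of 0.71 and 0.69 with the opposite sign to those as deposited (limma, adjusted p = 0.0237 and 0.0263).

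At the other end stood Hoxa4, an anterior gene of the Hoxa cluster. Its region over exon 1 (chr6:52140933-52141826) dropped in KO1 from 102 to 16 scaled reads and from 171 to 19 in KO2, a change of -2.85 (limma, adjusted p = 5.85e-11). The neighbouring upstream region (chr6:52141903-52142781) dropped from 135 to 55 and from 459 to 79, a change of -1.90 (limma, adjusted p = 4.56e-06). Between them stood a narrow Hoxd12 region (chr2:74510580-74511204), with 29.3 scaled reads in KO1 becoming 5 and 102 in KO2 becoming 31, a change of -2.01 (limma, adjusted p = 1.34e-06). All of these were low regions beside Hoxa9, and for each both lines moved the same way.

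The posterior genes as a group had smaller median differences. Of regions in paralogue groups 9 to 13, 13 of 18 fell, with median log2 changes of -0.49 in KO1 and -1.60 in KO2, and in groups 1 to 8 all 8 tested regions fell, with medians of -1.23 and -2.22. The share of all tested regions that fell was 86.5%, and 8 regions are too few to set apart from it. All 7 tested Hoxc regions are posterior, and without them 9 of 11 posterior regions fell, with medians of -0.83 and -1.51. All 5 Hox regions that did not pass belonged to posterior genes (Hoxa10, Hoxc10, Hoxc11, Hoxc13 and Hoxd13). This split was drawn with the results known and has no test. Posterior regions also held more reads, with medians over all regions of 61.5 scaled reads in KO1 and 369 in KO2 without HOT against 36.8 and 171 in groups 1 to 8. They were wider too, with a median of 1352.5 bp against 879 bp. Per kb the medians were closer, at 35.8 against 33.3 in KO1 and 247 against 192 in KO2. The part of level or width in the change was not tested.

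Regions richer in CG dinucleotides tended to lose more. Across the 26 tested Hox regions, CG density and the mean log2 change had a Pearson correlation of -0.552, across the 55 other homeobox regions -0.192, and across 13527 annotated promoter regions -0.298. The points share the same 4 libraries and neighbouring regions of 1 gene, so these values describe the regions and have no p.

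The TALE families, whose proteins (Meis, Pbx, Pknox, Tgif and Irx) bind DNA together with Hox proteins or act on the same kind of site, were measured at 22 regions, 20 of them past the minimum. Of these 18 fell, with medians of -1.08 in KO1 and -1.72 in KO2. That is near the values of all tested regions, of which 86.5% fell, with medians of -1.06 and -1.63. Tgif1, a repressor in TGF-beta signalling, had the highest level of the other homeobox regions in KO2. Its region (chr17:71196555-71203723) went in KO1 from 1145 to 445 scaled reads and from 4887 to 1138 in KO2, a change of -1.73 (limma, adjusted p = 2.92e-05). Its relative Tgif2 (chr2:156665082-156667772) lost more, from 333 to 69 and from 1540 to 230, a change of -2.50 (limma, adjusted p = 4.06e-09), and it lost more than Tgif1 in each line.

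Meis2 (chr2:115887164-115893246), a Hox cofactor of the proximal limb, had 1013 scaled reads in KO1 without HOT and 545 with HOT, and 4201 and 1620 in KO2. Its change was -1.13 (limma, adjusted p = 0.00606), smaller than the median of the genome in KO1 and KO2 alike. Pknox2 (chr9:36952297-36954970), a Pbx partner, lost almost equal shares in the lines, in KO1 from 245 to 85 and from 1804 to 628 in KO2, a change of -1.52 (limma, adjusted p = 2.47e-04). Irx3 (chr8:94322992-94326654) went from 382 to 116 and from 2278 to 723, a change of -1.68 (limma, adjusted p = 4.85e-05), and was one of few regions with a slightly larger loss in KO1.

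Genes of limb and facial mesenchyme came next. Prrx1 and Prrx2 mark early limb mesenchyme, and neither region passed in the limma fit. Prrx1 (chr1:165238393-165245609) went in KO1 from 1517 to 1176 scaled reads and from 4435 to 2309 in KO2, a change of -0.65 (limma, adjusted p = 0.0999), and edgeR did not call it either (adjusted p = 0.0673), while it passed in limma among regions with more than 50 reads (adjusted p = 0.0471). Prrx2 (chr2:30700371-30703682) went from 707 to 515 and from 1879 to 961, a change of -0.71 (limma, adjusted p = 0.0753, and 0.00539 in edgeR). Prrx1 held the highest KO1 level of all other homeobox regions, and both genes kept more of it than the median region in each line.

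The Dlx genes, which pattern the jaw and limb, spread widely. Dlx3 (chr11:94981332-94983818) went in KO1 from 574 to 429 scaled reads and from 1118 to 589 in KO2, a change of -0.67 that did not pass (limma, adjusted p = 0.0920, and 0.00595 in edgeR). Dlx2 (chr2:71381291-71385319) went from 617 to 296 and from 1892 to 581, a change of -1.38 (limma, adjusted p = 8.66e-04). Dlx1 (chr2:71366706-71369141), the neighbour of Dlx2, went from 348 to 71 and from 1063 to 130, a change of -2.65 (limma, adjusted p = 6.06e-10). Both lines put the 3 genes in the same order of loss.

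Msx2 (chr13:53565136-53568621), a target of BMP signalling, had 683 scaled reads in KO1 without HOT and 474 with HOT, and 1533 and 641 in KO2, a change of -0.89 (limma, adjusted p = 0.0287). Pitx1 (chr13:55926432-55933461), which gives the hindlimb its identity, went from 683 to 331 and from 3575 to 1525, a change of -1.14 (limma, adjusted p = 0.00597). Alx4 (chr2:93482692-93483692), which patterns the anterior limb, was far weaker, at 55.5 to 28 and 195 to 58, with a change of -1.35 (limma, adjusted p = 0.00113, and 0.0706 in edgeR). Msx2 and Pitx1 thus passed by both tools, and Alx4 rests on few reads.

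Six4 (chr12:74211129-74214870), a regulator of muscle and sensory development, went in KO1 from 717 to 440 scaled reads and from 2912 to 1464 in KO2, a change of -0.85 (limma, adjusted p = 0.0369). Lhx9 (chr1:140734742-140741165), a LIM-homeodomain factor of limb outgrowth and gonads, went from 1086 to 777 and from 1772 to 621, a change of -0.997 (limma, adjusted p = 0.0152). Loss at this Lhx9 region was small in KO1 and close to the median of all regions in KO2. The other tested Lhx9 regions changed by -2.29 and -1.20. On the centred scale 12 of the named regions had a positive value, which stands for a smaller loss than at the median region. Those of Hoxd13, Hoxc11, Hoxa10, Prrx1, Dlx3 and Prrx2 passed on that scale (limma, adjusted p from 0.00369 to 0.0430). These are also the regions named for the smallest changes. Those of Six4, Msx2, Lhx9, Meis2, Pitx1 and Hoxa9 did not pass (limma, adjusted p from 0.112 to 0.767).

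**Figure D3:**
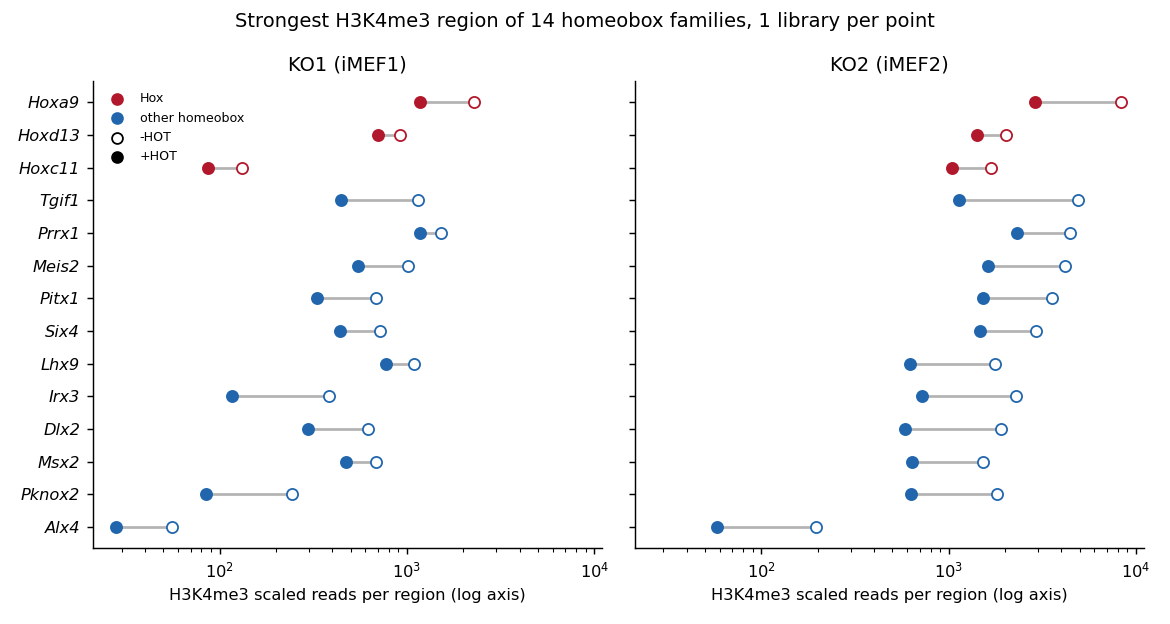
Scaled H3K4me3 reads (logarithmic axis) of the strongest region of each of 14 families, in KO1 and KO2. Open circles are -HOT and filled circles +HOT, 1 library each, and in every family shown and both lines the filled circle lies below the open one, from 28 for Alx4 in KO1 with HOT to 8266 for Hoxa9 in KO2 without.

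At a few Hox genes the log2 ratios of the lines differed in sign, and these were picked after their values were seen. Hoxd9 (chr2:74535568-74537186) had 36.0 scaled reads in KO1 without HOT and 40 with HOT, and 618 and 115 in KO2. Hoxc9 (chr15:102805624-102808400) had 62.3 and 64 in KO1 beside 744 and 202 in KO2. The upstream Hoxc10 region (chr15:102791952-102796956) had 92.3 and 119 in KO1, and 1004 and 243 in KO2. In each case the KO1 values were close to each other or higher with HOT, and the fall was in KO2. KO1 started low, at 18.4 scaled reads per kb for this Hoxc10 region and 22.4 for Hoxc9. The median of all H3K4me3 regions in KO1 with HOT was 32.0. The Hoxd9 reads lay over 1619 bp. How much of this KO1 signal is background was not tested.

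The common SE gives these regions an adjusted p in limma of 0.00604 for Hoxd9, 0.0247 for Hoxc9 and 0.0386 for Hoxc10, and they are among the 21 Hox regions counted as fallen. In edgeR, which weighs reads, their adjusted p was 0.107, 0.104 and 0.0514, and none passed. Hoxa5 was alike, with 36.8 and 36 scaled reads over 1462 bp in KO1 and 283 and 62 in KO2 (adjusted p = 0.00761 in limma and 0.146 in edgeR). Over all Hox regions edgeR called 15 of 26, well below the 94.5% of all tested regions. Opposite signs in the 2 lines were seen at 3 of 81 members (3.70%) and at 112 of 16129 tested regions (0.694%).

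Agreement between the lines was also looser among Hox regions. The Pearson correlation of the KO1 and KO2 log2 ratios was 0.383 over the 26 Hox regions, 0.666 over the 55 other homeobox regions and 0.733 over all 16129 tested regions. Regions of 1 gene and 1 cluster are not independent, and the values have no p. The Hox regions include those of Hoxc, which were weak in KO1 before HOT.

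The lines already differed at Hox genes before HOT. Relative to the median region, the log2 ratio of KO2 to KO1 in -HOT cells had an SD of 1.03 over the Hox regions, 0.71 over the other homeobox regions and 0.47 over all tested annotated promoter regions. It lay beyond 1 log2 unit at 9 of 26 Hox regions (34.6%), at 8 of 55 other regions (14.5%) and at 5.10% of annotated promoter regions. With 1 -HOT library per line this is a description of these libraries, and the line, the embryo it came from and the library cannot be told apart.

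The regions beyond that limit were chosen by it. All 7 tested Hoxc regions were on the KO2 side, from 0.42 to 2.35 with a median of 1.46, and not all of them reached the limit. The furthest was Hoxc10 at 2.35 (chr15:102797101-102799688), with 60.0 scaled reads in KO1 and 1211 in KO2. That region went to 48 and 603 with HOT. Hoxd9 followed with 2.10 and Hoxc11 with 1.70, then Hoxc9 with 1.59 and Hoxa6 with 1.22. Hoxa4 (exon 1) stood at -1.22 and Hoxa13 at -1.11, on the KO1 side, and the medians of all Hoxa and Hoxd regions were -0.24 and -0.40. Hoxa6 and Hoxd9 thus had the opposite sign to the medians of their clusters.

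Among the other families, Meis1 (chr11:18914324-18921190) was the 1 region over the limit on the KO2 side. It had 257 scaled reads in KO1 and 2856 in KO2, and 148 and 832 with HOT, a relative difference of 1.51. On the KO1 side the LIM-homeodomain genes had a family median of -1.005 over 10 regions, and the 2 Alx regions had -1.86 (Alx1) and -0.17 (Alx4). Lhx2 (chr2:38205962-38209057) had 452 scaled reads in KO1 and 548 in KO2, a relative difference of -1.69. A second Lhx9 region (chr1:140741762-140744326) had 419 and 258, or -2.66. It was the member furthest from the median on either side, and it held more scaled reads in KO1 than in KO2.

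**Figure D4:**
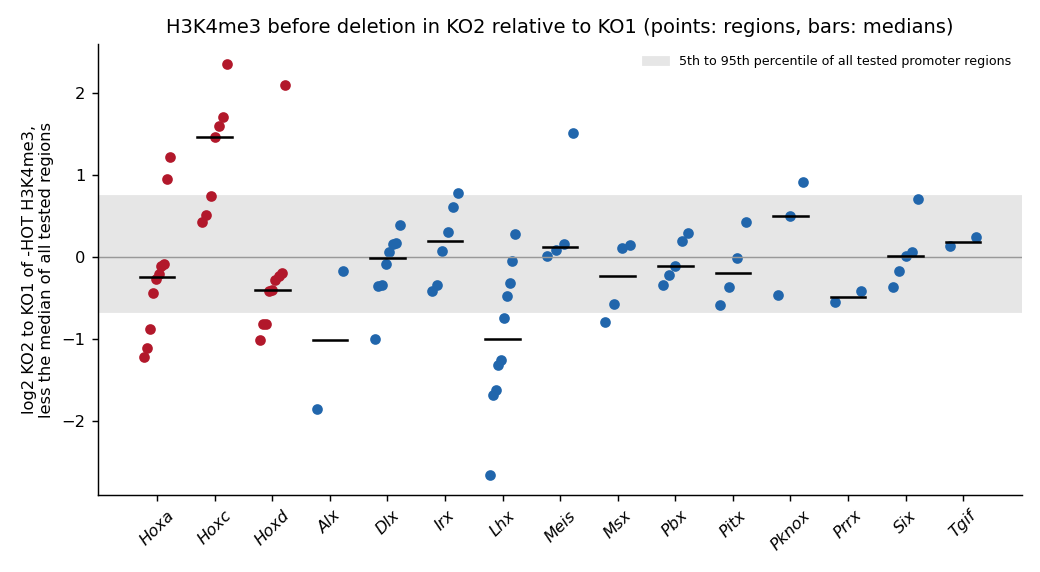
Log2 ratio of KO2 to KO1 H3K4me3 in -HOT cells relative to the median of all tested regions (vertical axis) by family (horizontal axis), with 1 point per tested member region and a bar at the family's median. The grey band holds the 5th to 95th percentile of all tested annotated promoter regions, -0.68 to 0.75, and the Hoxc points lie mostly above it while the lowest point is the second Lhx9 region at -2.66.

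H3K4me1 went the other way at most homeobox regions. Of the 96 H3K4me1 members, 68 had more than 20 reads in one condition of both lines, 20 over Hox and 48 over other homeobox regions, and the other 28 were not tested. The 3 Lhx9 regions have no H3K4me1 member, since they lie in a stretch of chromosome 1 (19197281 to 145960682) without usable H3K4me1 coordinates. With HOT 45 of the 68 rose in limma and 5 fell at an adjusted p under 0.05. The background over all 78691 tested H3K4me1 regions was 14.8% rising and 2.57% falling. Over regions at annotated promoters it was 66.1% rising and 2.94% falling, so the members' share of 66.2% rising was near that of promoters in general.

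Hox and other homeobox regions had close median gains. Of the Hox regions 15 of 20 rose and 0 fell (limma, 0 also at an unadjusted p under 0.05, and 0 in edgeR), and of the others 30 of 48 rose and 5 fell. Median log2 ratios were 1.25 in KO1 and 1.21 in KO2 for Hox, and 1.17 and 1.04 for the others, a difference of 0.08 and 0.17. Without the line as a block 24 of the 68 rose and 1 fell, and centred on the median region of each line 29 rose and 6 fell. Without the block 6.37% of all tested regions rose and 0.131% fell (32.2% and 0.244% of those at annotated promoters). After centring 9.59% rose and 3.45% fell (47.5% and 3.44% at annotated promoters).

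The largest gains began from few reads. At Meis2, the region chr2:115891923-115893119 rose in KO1 from 6 to 68 scaled reads and from 4 to 111 in KO2, a change of 3.89 (limma, adjusted p = 3.96e-07). A second Meis2 region (chr2:115890596-115891463) rose from 9 to 49 and from 6 to 70, a change of 2.83 (limma, adjusted p = 2.23e-06). At Six4, whose promoter is printed above, the region just downstream of the start site (chr12:74211819-74214231) rose from 14 to 170 and from 18 to 206, a change of 3.48 (limma, adjusted p = 3.66e-07). All 3 were far above their -HOT values in both lines.

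Hoxa9 rose most of the Hox regions at its narrow part chr6:52183708-52184177, in KO1 from 6 to 28 scaled reads and from 1 to 31.8 in KO2, a change of 3.04 (limma, adjusted p = 8.99e-06). The KO2 value starts from 1 read, so that size is poorly fixed. The wide Hoxa9 region next to it (chr6:52176522-52183294) rose from 123 to 548 and from 189 to 638, a change of 1.95 (limma, adjusted p = 2.27e-05). Dlx5 (chr6:6831154-6831809), a partner of Dlx6 in the jaw and limb, rose from 10 to 44 and from 6 to 54.5, a change of 2.51 (limma, adjusted p = 5.27e-06). The direction was again the same in both lines.

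The 5 regions that fell held 21 to 57 scaled reads before HOT. Lhx1os (chr11:84339001-84339759), transcribed opposite Lhx1, fell in KO1 from 35 to 16 scaled reads and from 47 to 14.5 in KO2, a change of -1.35 (limma, adjusted p = 7.47e-04). Msx3 (chr7:147233906-147234661) fell from 31 to 15 and from 57 to 18.2, a change of -1.30 (limma, adjusted p = 0.00115), and Pknox1 at chr17:31703324-31703963 from 38 to 19 and from 44 to 24.5, a change of -0.89 (limma, adjusted p = 0.0140). Dlx6os1 and Dlx3 fell by 0.85 and 0.76 on the log2 scale in limma, and edgeR called neither (adjusted p = 0.123 and 0.237). At Lhx1os, Msx3, Pknox1 and Dlx6os1 the overlapping H3K4me3 region fell as well, so both marks were lower there.

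Over all members, gains were more frequent where H3K4me3 was denser. With the H3K4me1 members split into 3 groups by the -HOT H3K4me3 density beneath them, 8 of 23 rose in the lowest, 18 of 22 in the middle and 19 of 23 in the highest group. Their median log2 ratios were 0.18, 1.38 and 1.78 in KO1 and 0.65, 1.18 and 1.39 in KO2. Position went with it: of the regions with 0.5 or more of their length inside an H3K4me3 region 44 of 59 rose, and of those with less inside 1 of 9 rose. Within the Hox regions the relation was not uniform. The Pearson correlation of H3K4me3 density with the H3K4me1 log2 ratio was 0.827 in KO1 and 0.147 in KO2 over 18 Hox regions, and -0.285 and 0.577 over the 12 outside Hoxc, against 0.421 and 0.657 over 47 other homeobox regions. Over 14327 tested H3K4me1 regions at annotated promoters the same correlation was positive too, at 0.232 in KO1 and 0.300 in KO2. Several of the member regions share an H3K4me3 region, and the values have no p.

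The difference between the lines came back in H3K4me1. All 8 tested Hoxc regions gained more in KO2, with medians of 0.15 in KO1 and 1.43 in KO2, and 0 of them exceeded a log2 ratio of 0.58 in KO1 while 8 did in KO2. A Hoxc10 region just downstream of the start site (chr15:102797292-102798703) had 26 scaled reads in KO1 without HOT and 34 with HOT, and 11 and 126 in KO2. In Hoxa the gain was in both lines, with medians of 1.52 and 1.23 over 10 regions. Meis regions gained more in KO2 at 5 of 5 (medians 1.18 and 2.29), and Dlx regions at 1 of 9 (1.04 and 0.52).

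Set against each other, a higher H3K4me3 level in a line before HOT went with a larger H3K4me1 gain in that line. Over 18 H3K4me1 regions on 12 Hox regions the Pearson correlation of the 2 line differences was 0.815 and Spearman's rho 0.809, and over 47 regions on 38 other homeobox regions 0.436 and 0.453. With the Hoxc regions left out, which was decided once their values were known, 12 H3K4me1 regions on 8 Hox regions gave 0.555 and 0.631. Over 14327 regions at annotated promoters it was 0.112 and 0.046. The Hox points come from few clusters, share 8 libraries and partly the same H3K4me3 region, and no p is given.

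**Figure D5:**
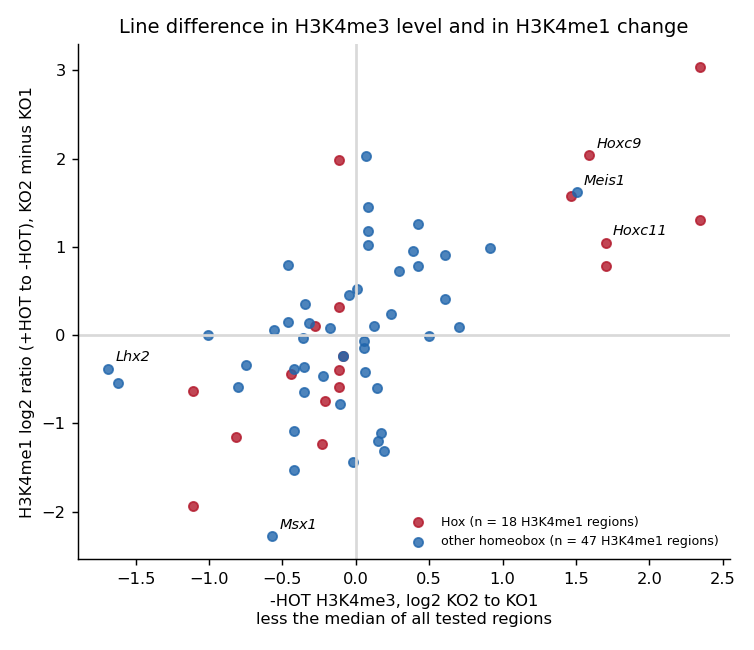
KO2 minus KO1 of the -HOT H3K4me3 level (log2, relative to the median of all tested regions, horizontal axis) against KO2 minus KO1 of the H3K4me1 log2 ratio of +HOT to -HOT (vertical axis), 1 point per tested H3K4me1 member. The 18 Hox points rise from left to right, with the Hoxc points at the right, and the 47 other homeobox points scatter more widely.

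Related genes from lists outside the 16 families give a frame. Of 90 other homeodomain genes, 69 had an H3K4me3 region and 58 a strongest region past the read minimum, and 55 of these fell, with a median log2 ratio of -1.16 for KO1 and -1.86 for KO2. Among the chromatin factors that act on Hox genes, which include Polycomb and KMT2 subunits, 24 genes were tested and 19 fell, with medians of -0.71 and -1.09. Of the 14 fibroblast markers 11 fell, and of all tested regions 86.5%. By the strongest region of each gene, 14 of 19 Hox and 38 of 43 other homeobox genes fell. Their medians were -0.79 in KO1 and -1.87 in KO2 for Hox, and -0.97 and -1.65 for the others. The other homeodomain genes thus had a lower KO1 median than both classes of the 16 families and a KO2 median near that of Hox. The chromatin factors changed less than the median region in each line.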

How the data were processed

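ChIP-seq of H3K4me3 and H3K4me1 was used from 8 of 20 libraries, the KO -HOT and +HOT cells of both lines. Per the labels and methods, the authors trimmed and aligned the reads to mm9 with BWA, called narrow (H3K4me3) or broad (H3K4me1) peaks with MACS2, counted reads per region and annotated regions with Homer. As deposited, each signal value is the count of reads in a region after the authors' scaling to the lowest coverage of its line. Dividing by the step of each library gave whole reads for 100% of values within 0.001. The deposited High, Medium and Low lists, with the authors' gene names and distances to start sites, chose the members. The authors' log2 fold change columns were not used. The members and all gene lists were chosen with earlier results of these data known.

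Values were set to log2(value + 1) and fitted in limma (version 3.58.1, R 4.3.3) with terms for HOT and for the line, the latter as a block. The fit covered each region where KO1 and KO2 both exceeded 20 reads in either condition, with Benjamini-Hochberg adjustment over all of these and a threshold of 0.05. On this scale the change of low regions is understated. Fold changes are mean log2 ratios of +HOT to -HOT. The same line pairs its libraries, and deviations of same-line libraries from their condition means correlated at 0.587 (H3K4me3) and 0.580 (H3K4me1). P-values of limma rest on the spread between the 2 lines pooled over regions. For H3K4me3 the SE was 0.39 at every region, so a p-value does not reflect that region's own spread. This SE includes the general difference between the lines, and with each line centred on its median region it was 0.26. For H3K4me1 the SE ran from 0.24 to 0.47. edgeR 4.0.16 on the recovered reads was an alternative, run with the same block. Named were the strongest region of each family, the 3 smallest and 3 largest H3K4me3 changes of Hox and of other homeobox regions, and the 5 largest H3K4me1 changes each way, except a gene that is not reported here. Promoter sequence and CG counts came from mm9 and GENCODE vM1.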

Additional observations from a re-analysis of the deposited data

Results flagged for a closer look

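At 14 tested regions the 2 lines moved in opposite directions with HOT. With 1 library per line and condition, none of these differences was tested. For H3K4me3 the difference between the log2 ratios (KO2 minus KO1) was -2.56 at Hoxd9 (0.15 in KO1 and -2.42 in KO2), -2.41 at the upstream Hoxc10 region (0.36 and -2.04) and -1.91 at Hoxc9 (0.04 and -1.87). All 3 are Hox regions whose -HOT level stood above the median line difference in KO2. In KO1 they held only 36.0 to 92.3 scaled reads without HOT.

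For H3K4me1, KO2 gained and KO1 lost at Hoxc9 (difference 2.04, with -0.29 in KO1 and 1.76 in KO2), a Meis2 region (1.45, with -0.38 and 1.06), Hoxc10 (1.30, with -0.30 and 1.00), Pitx1 (0.78, with -0.20 and 0.58) and Pknox2 (0.74, with -0.63 and 0.11). KO1 gained and KO2 lost at Prrx1 (-1.53, with 0.89 and -0.64), Pitx3 (-1.44, with 0.77 and -0.67), Dlx1as (-1.20, with 0.76 and -0.44), Dlx4 (-1.10, with 0.62 and -0.48), Hoxa13 (-0.63, with 0.58 and -0.05) and Lhx1 (-0.34, with 0.12 and -0.22). Opposite signs in H3K4me1 were seen at 16.2% of tested members, at 6.74% of tested regions over annotated promoters and at 31.4% of all tested regions.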

How the results depend on the processing

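The count of 71 of 81 H3K4me3 members that fell was 68 of 81 with a pseudocount of 5, 57 of 99 without a read minimum and 60 of 62 with more than 50 reads. It was 60 of 81 in limma with a trend and 64 of 81 in edgeR. With one region per gene it was 52 of 62, and within 1000 bp of a start site 54 of 55. The count was 0 without the replicate block (3 at an unadjusted p under 0.05) and 15 with each line scaled to a median log2 ratio of 0. Of all 16129 tested regions, 0 fell without the block (679 at an unadjusted p under 0.05) and 3744 fell with that scaling. With one line left out, 61 to 80 members lay beyond a log2 ratio of 0.58, a value with no test. The 12 named regions that turned positive under the median scaling had log2 values of 0.89 (Hoxd13), 0.71 (Hoxc11), 0.69 (Hoxa10 and Prrx1), 0.67 (Dlx3), 0.63 (Prrx2), 0.50 (Six4), 0.45 (Msx2), 0.35 (Lhx9), 0.21 (Meis2 and Pitx1) and 0.10 (Hoxa9). Values of 0.50 and below did not pass in limma on that scale. Of the 22 named H3K4me3 calls, the missing block weakened 16, a missing read minimum 5, and edgeR and the trend 1 each. EdgeR strengthened 4 (Hoxa10, Hoxc11, Dlx3 and Prrx2), the trend the same 4, and more than 50 reads 4 (Hoxa10, Dlx3, Prrx1 and Prrx2), all without a change of sign.

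The count of 45 H3K4me1 members that rose was 25 without a read minimum and 25 within 1000 bp of a start site (of 38), 24 without the replicate block and 29 under the median scaling. With one line left out, 46 to 48 members lay above a log2 ratio of 0.58, a value with no test and not a count of calls. The count of 5 that fell was 0 without a read minimum (limma, 10 at an unadjusted p under 0.05, and 4 in edgeR with the minimum), 1 with more than 50 reads and 1 without the replicate block, and 7 to 9 members lay below a ratio of -0.58 with one line left out. The H3K4me1 difference between Hox and other medians was 0.13, and 0.23 without a read minimum and 0.57 within 1000 bp of a start site. With the distance limit 38 regions were compared and without a read minimum 96, and the causes of these shifts were not tested. Hox minus other in the H3K4me3 ratio ran from -0.10 to 0.23 with one line left out. In weak regions few reads limit the size of a change.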
